A study of Sus scrofa with 9 samples.

Results

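The subject is the step from untreated pig fibroblasts at 0 h to the same kind of culture after 48 h of insulin, described across all genes. The cells, porcine embryonic fibroblasts, are connective tissue cells taken from pig embryos and kept in culture. The 3 control libraries are untreated cells at 0 h, the 3 treated libraries are cells kept with insulin for 48 h, and 3 more libraries at 72 h of insulin entered the same model, so that 6 of the 9 libraries of the series make up the comparison. The design text calls the 3 libraries of a time biological replicates. Neither the insulin dose nor the medium, nor how many lines or embryos gave the cells, is stated in the labels. No untreated culture of 48 h was analysed here, so insulin and time in culture cannot be told apart in any value that follows. Of 30477 gene IDs listed, 11063 reached an FPKM of 1 in at least 3 libraries and were tested. FPKM counts sequenced fragments relative to gene length and to the size of each library.

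Insulin binds a receptor tyrosine kinase on the cell surface and, through the PI3K, AKT and MAP kinase pathways, promotes uptake of glucose, synthesis of lipid and protein, and growth. Fibroblasts make and remodel the collagen matrix, and they also secrete peptides, growth factors and cytokines and respond to them. Immediate early genes such as FOS and EGR1 encode transcription factors that are induced within minutes of a stimulus and whose messages are short-lived. In bulk RNA, fewer cells of a type and less RNA per cell cannot be told apart.

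Of the 11063 genes, 5524 were called (49.9%), 3048 of them higher at 48 h (27.6%) and 2476 lower (22.4%), at an adjusted p below 0.05 by limma on log2(FPKM + 1). Most of these changes were small. The called genes had a median log2 change of 0.41 among those that rose and -0.41 among those that fell, and 3559 of the 5524 calls (64.43%) were smaller than 0.5. A log2 change of at least 1 was reached by 173 genes that rose (1.56%) and 158 that fell (1.43%). The share of called genes was higher at high levels: 61.34% of the 1402 genes with a mean of at least 50 FPKM at 0 h, against 37.72% of the 1278 genes under 2 FPKM. The balance between rises and falls depended on the scale. With the FPKM sums of all libraries made equal, 1959 genes rose and 3691 fell, the share of rises going from 55.2% to 34.7%, and the median change of all genes went from 0.02 to -0.10. Rescaling to protein-coding genes gave 2124 rises and 3410 falls (38.4% rises).

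**Figure D1:**
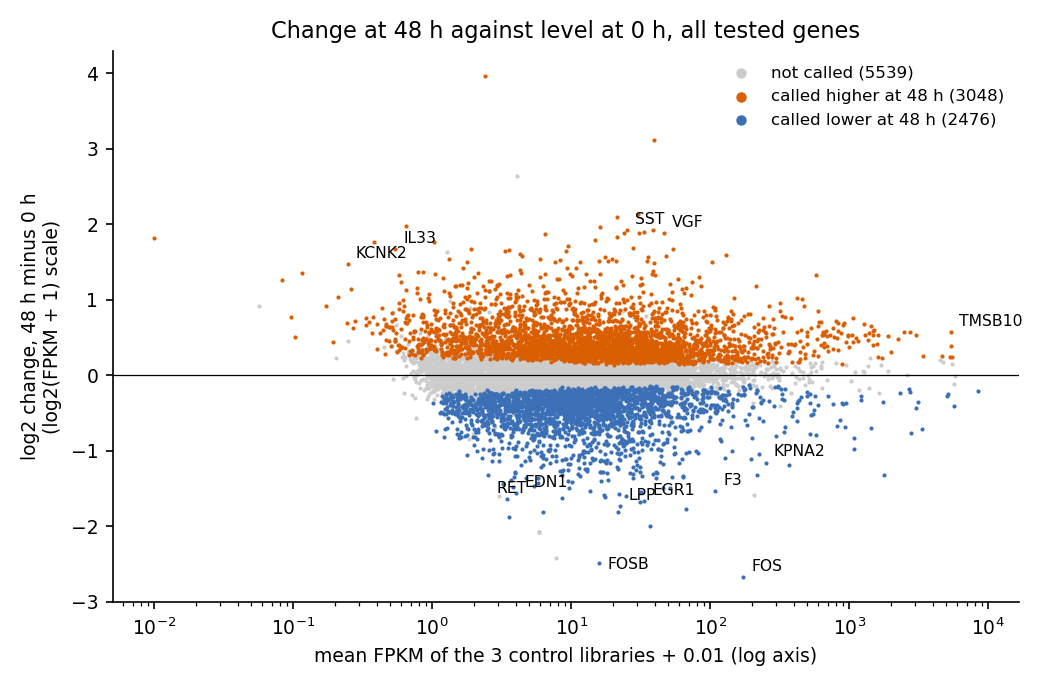
Each point is 1 of the 11063 tested genes, with its mean FPKM in the 3 control libraries on the x axis (log axis, 0.01 added) and its log2 change from 0 h to 48 h on the y axis. Orange points were called higher (3048), blue points lower (2476) and grey points were not called. Most called genes lie within 1 log2 unit of 0. At the low end of the x axis falls are absent, since a gene that low at 0 h was tested only if its level was higher in other libraries.

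The libraries differed in other ways that moved with the groups. FPKM sums were 487858 to 497665 at 0 h, 524992 to 563656 at 48 h and 505022 to 525471 at 72 h. The median SD of log2 values within a group was 0.068 at 0 h and 0.11 at 48 h. The 3 libraries at 48 h also differed from 0 h by gene span, the distance from the start to the end of a gene with its introns, which was known for 9306 tested genes. In the decile of genes with the shortest spans (median 3.39 kb), 55.3% were called higher and 8.27% lower. In the decile with the longest (median 247 kb), 10.2% were called higher and 38.3% lower. The shortest decile had median differences from the 0 h mean of 0.385, 0.298 and 0.211 in replicates 1, 2 and 3 at 48 h, and the longest decile of -0.248, -0.16 and -0.063. The medians of the 0 h libraries lay between -0.024 and 0.019 in every decile. The 72 h libraries had medians of 0.172, 0.21 and 0.075 in the shortest decile and of -0.039, -0.072 and -0.011 in the longest. The part of this gradient in single results was not tested, but genes with a known span, and gene groups below, were also fitted with a trend on span removed from each library. That left 2175 rises and 2238 falls among the 9306 genes.

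**Figure D2:**
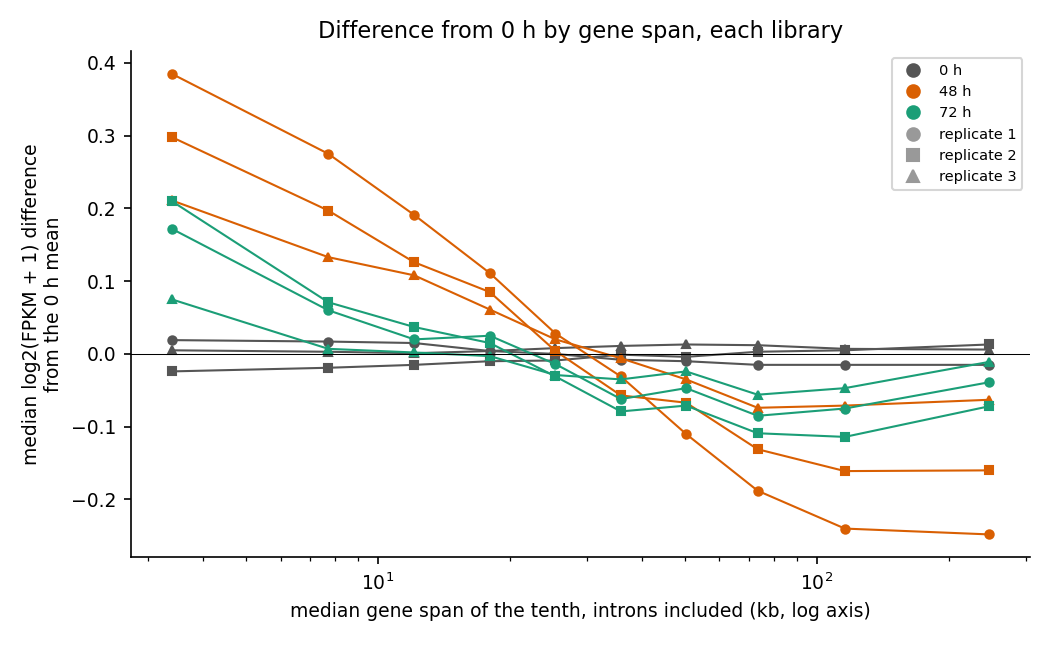
The x axis is the median gene span of each decile of the 9306 genes with a known span (kb, log axis), and the y axis is the median difference of log2(FPKM + 1) from the 0 h mean in each of the 9 libraries. The 48 h libraries run from 0.385, 0.298 and 0.211 in the shortest decile to -0.248, -0.16 and -0.063 in the longest, while the 0 h libraries stay near 0.

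Single library values below are given in the order of replicates 1, 2 and 3, first at 0 h and then at 48 h, and log2 changes carry their standard error from the model. Coordinates are those of Sscrofa11.1, and all values are for whole genes. A gene under 1 FPKM at one time was tested because of its levels at the others, which bears on the p-value of any such gene.

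The 12 largest rises included 2 genes for secreted peptides and a regulator of the early response. SST (ENSSSCG00000033815; chromosome 13, 125337560 to 125338742) encodes somatostatin, a peptide hormone that restrains secretion by other cells. It rose from 26.7, 25.1 and 23.4 FPKM to 100.58, 100.1 and 93.2, a log2 change of 1.93 ± 0.11 (adjusted p = 8.31e-07). VGF (chromosome 3, 8888502 to 8891399) encodes the precursor of several secreted peptides of neurons and endocrine cells. It rose from 45.1, 46.1 and 48.1 to 189, 181 and 153 FPKM, by 1.88 ± 0.08 (adjusted p = 1.89e-07). NAB2 (chromosome 5, 22400275 to 22406424), a corepressor that binds EGR proteins, rose from 6.64, 6.6 and 6.12 to 25.96, 27.4 and 25.7 FPKM, by 1.88 ± 0.09 (adjusted p = 2.86e-07). For all 3 genes every 48 h library lay above every control library by a wide margin. Lack of overlap was a condition for these 12 genes, and 32.4% of all tested genes were higher at 48 h without overlap.

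Among enzymes of the mevalonate pathway, which makes the precursors of cholesterol, HMGCS1 rose from 23.7, 24.7 and 23.6 to 82.5, 91.2 and 102 FPKM (1.89 ± 0.08), and ACAT2 from 32.2, 28.6 and 31.9 to 121, 116 and 113 (1.88 ± 0.07). The other genes of the 12 largest rises were AMCF-II, CCL2, FABP3, CEBPD, MVD, SCD and IDI1, with log2 changes from 1.89 to 3.97.

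The 2 largest falls were those of FOS and FOSB. FOS, a subunit of the AP-1 transcription factor, fell from 171, 167 and 177 to 33.7, 23.8 and 21.8 FPKM (-2.68 ± 0.15, adjusted p = 8.31e-07), and FOSB from 16.3, 15.9 and 15.3 to 2.42, 2.12 and 1.54 (-2.49 ± 0.16). EGR1 (chromosome 2, 140440829 to 140445302), a zinc finger factor of the same early response, fell from 34.02, 33.02 and 33.5 to 11.12, 9.76 and 8.79 FPKM (-1.67 ± 0.09, adjusted p = 6.73e-07). EGR1 and its corepressor NAB2 thus changed in opposite directions at 48 h. HES4, a transcriptional repressor of the HES family, fell from 8.21, 9.09 and 8.25 to 1.56, 2.66 and 2.11 FPKM (-1.63 ± 0.12), and JAG1, a Notch ligand, from 35.1, 38.3 and 36.5 to 7.13, 7.95 and 10.4 (-2.001 ± 0.13). SPAG5, a protein of the mitotic spindle, fell from 3.17, 3.45 and 3.79 to 0.37, 0.52 and 0.39 FPKM (-1.65 ± 0.11). In these 6 genes no 48 h library reached the lowest control library, which was a condition of the choice. Of all tested genes, 27.6% were lower at 48 h without overlap. SPAG5 was tested only through its control levels.

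One of the 12 largest falls was uneven between the treated libraries. LPP, a protein of focal adhesions with a span of 697 kb, stood at 20.3, 24.6 and 22.5 FPKM at 0 h and at 2.87, 5.78 and 12.3 at 48 h (-1.73 ± 0.33, adjusted p = 0.00169). Its 48 h values overlapped no control value, as the choice required. Their SD on the log2 scale was among the 6 largest of all tested genes with a symbol. The span gradient of the 48 h libraries runs in the same order as these values, and its part in this fall was not tested. LPP stayed called lower with the span trend removed. The remaining genes of the 12 were CYP1A1, ENC1, COL5A3, ANLN and CKAP2, at -1.67 to -1.88.

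**Figure D3:**
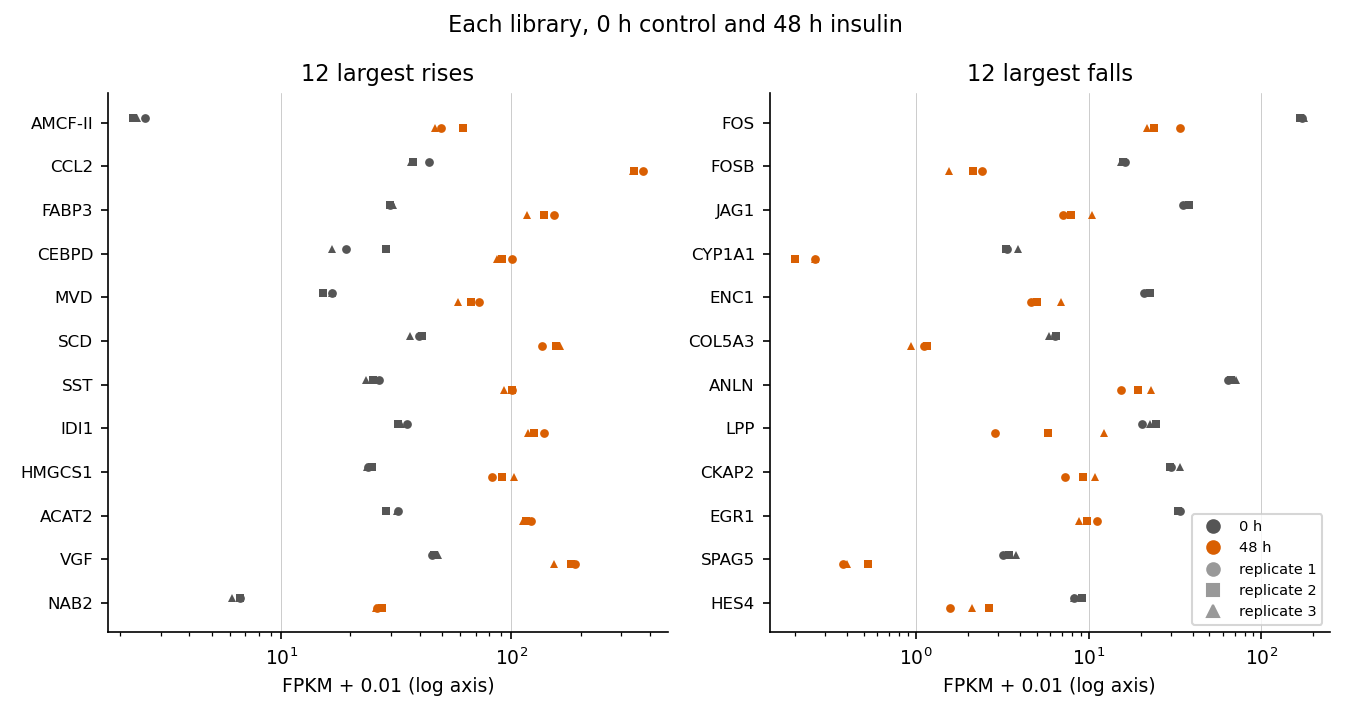
Each row is 1 gene and each mark 1 library (FPKM plus 0.01, log axis), grey for 0 h and orange for 48 h, with shapes for replicates 1, 2 and 3. The 12 genes on the left have the largest rises and the 12 on the right the largest falls among called genes with a symbol. Only genes whose 2 groups of libraries did not overlap were taken, so the gap in every row is a condition of the choice. LPP spreads from 2.87 to 12.3 FPKM at 48 h.

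The most abundant transcripts also shifted. The 8 genes with the largest gains in mean FPKM together held 5.81% ± 0.13 (SD, n = 3) of the FPKM sum at 0 h and 7.21% ± 0.317 at 48 h, and the 8 with the largest losses went from 7.13% ± 0.0446 to 4.94% ± 0.34. The genes were picked for this change, so these sums are a description. TMSB10, which binds actin monomers, went from 5404, 5369 and 5476 to 8514, 8363 and 7351 FPKM (0.57 ± 0.09). GAPDH, the glycolytic enzyme often used as a reference gene, went from 2573, 2399.9 and 2496 to 3935, 3846 and 3366 FPKM (0.57 ± 0.10). RPS20, RPLP1 and RPLP2, proteins of the ribosome whose processed copies can share reads, had log2 changes of 1.33, 0.57 and 0.52. These genes have spans of 1.02 to 5.52 kb, at the short end of the gradient. Without the span trend TMSB10 was higher by 0.157 (adjusted p = 0.0434) and GAPDH by 0.333 (adjusted p = 0.00483), and the rises of RPLP1 and RPLP2 were 0.229 and 0.171. The rises of the mitochondrial gene COX3 (0.39), of LGALS1 (0.25) and of VIM (0.25) were lost without it, COX3 going to -0.05 and LGALS1 to -0.05.

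The losses were in matrix and contractile genes, except for the mitochondrial gene ND4L (-0.24). The call of ND4L was lost in 7 settings, among them leaving out any 1 of the control libraries or 48 h replicate 1 or 2. THBS1, a secreted matrix protein that activates latent TGF-beta, fell from 3292, 3373 and 3383 to 1742, 2054 and 2411 FPKM (-0.71 ± 0.12), and SPARC, a collagen-binding glycoprotein, from 3126, 3031 and 2970.1 to 2286, 2204 and 2293 (-0.43 ± 0.06). COL1A2, a chain of type I collagen, fell from 5756, 5658 and 5625 to 4046, 4199.5 and 4583 FPKM (-0.41 ± 0.07). The partner chain COL1A1 changed less, from 8627, 8512 and 8083 to 7019, 7397 and 7448 (-0.21 ± 0.06, adjusted p = 0.0164), a call lost without 0 h replicate 1 or 2 and without a filter on low values. ACTG2, the enteric smooth muscle actin, fell from 2881, 2659 and 2809 to 1865, 1492 and 1566 FPKM (-0.77 ± 0.08). ACTG2 and ACTA2 have near-identical coding sequences, so their values may share reads.

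Several genes went from below 0.5 FPKM in every control library to at least 1 FPKM in every 48 h library. They were chosen for this pattern and entered the fit only through their later levels, so their values are a description, with no test. KCNK2, a potassium channel opened by stretch and lipids, went from 0.27, 0.14 and 0.3 to 2.5, 2.2 and 2.61 FPKM (1.48 on the log2 scale). C3, the central protein of the complement cascade, went from 0.11, 0.09 and 0.12 to 1.7, 2.17 and 1.62 FPKM (1.35), and 1 of the 72 h libraries reached 11.6. ALDH1A1, which makes retinoic acid from retinal, went from 0.1, 0.27 and 0.38 to 1.93, 1.99 and 1.39 FPKM (1.15). PRPH, an intermediate filament of peripheral neurons, went from 0.29, 0.19 and 0.12 to 1.98, 1.07 and 1.41 FPKM (1.04). GPC3, ITGB4, CASP1 and B3GNT7 met the same rule with log2 changes of 0.77, 0.65, 0.68 and 0.71. SCARNA12, a small RNA of Cajal bodies, was listed at 0 in every control library and at 2.27, 2.13 and 3.34 FPKM at 48 h.

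In the other direction, 3 genes met the rule. They entered the fit only through their control levels and are likewise described with no test. RET (chromosome 14, 61305818 to 61361416), the receptor tyrosine kinase for ligands of the GDNF family, went from 2.77, 2.44 and 2.38 to 0.41, 0.41 and 0.42 FPKM (-1.32). SPOCK1, a proteoglycan of the matrix, went from 1.11, 1.19 and 1.39 to 0.38, 0.35 and 0.34 FPKM (-0.72). CYP1A1, the aryl hydrocarbon receptor target that oxidises aromatic compounds, went from 3.37, 3.33 and 3.92 to 0.25, 0.19 and 0.25 FPKM (-1.88). The related CYP1B1, which was expressed at higher levels, fell from 41.1, 41.6 and 44.3 to 18.2, 21.2 and 23.9 (-0.98 ± 0.10). Near 1 FPKM the pseudocount decides the size of a log2 change, and with a pseudocount of 0.1 the changes of the genes of both directions named here, except CYP1B1, were more than 1.5 times as large. The same holds for SPAG5, MYL11, HAS2, EDN1, IL33, LEPR, PDGFB, ALDH1A2, CLDN11 and ACAN.

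Whether a change of 48 h lasted was read from the contrast of 72 h with 48 h, in which 1014 genes were called higher (9.17%) and 1800 lower (16.3%). This contrast shares the 48 h libraries with the first, so an unusual 48 h library moves both. Of the 3048 genes that rose by 48 h, 723 fell again (23.7%), 252 rose further (8.27%) and 2073 were not called (68.0%). Of the 2476 that fell, 312 rose again (12.6%), 440 fell further (17.8%) and 1724 were not called (69.6%). The genes higher at 48 h than at both other times, 6.54% of all tested, had a median span of 10.4 kb, and those lower at 48 h than at both, 2.82%, of 91.5 kb, against 30.3 kb over all tested genes. Among the 9306 genes with a span, 645 were higher at 48 h than at both other times as deposited and 323 without the span trend. Those lower than at both numbered 318 as deposited and 281 without it. Over all tested genes, leaving out 48 h replicate 1 left 387 higher and 152 lower. Leaving out 48 h replicate 2 left 360 and 148, and leaving out 48 h replicate 3 gave 1093 and 768.

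The 16 genes with the largest turns, 8 in each direction, were named by rule. SST fell at 72 h to 15.9, 13.3 and 10.9 FPKM, below its control values (-2.79 ± 0.11 against 48 h, adjusted p = 3.24e-07). STMN3, a microtubule-destabilising protein of neurons, went from 11.4, 8.39 and 8.85 to 38.5, 32.3 and 29.8 and then to 16.8, 19.8 and 16.6 FPKM (1.71 ± 0.12, then -0.88 ± 0.12). HAS2, which makes hyaluronan, went from 0.52, 0.63 and 0.78 to 2.43, 2.72 and 2.64 and then to 0.7, 1.39 and 0.88 FPKM (1.13 ± 0.13, then -0.87 ± 0.13). MT1X, a metal-binding metallothionein with close copies in the genome, went from 15.8, 18.3 and 18.1 to 60.5, 53.01 and 47.04 and then to 21.2, 26.1 and 21.4 FPKM (1.56 ± 0.11, then -1.19 ± 0.11). The rule took only genes whose 48 h libraries did not overlap those of either other time. For SST, STMN3 and MT1X the gap was clear.

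PGF, a growth factor of the VEGF family, had 48 h values of 8.12, 6.98 and 5.91 FPKM against 3, 2.23 and 3.51 at 0 h and 2.99, 5.53 and 2.44 at 72 h. RAMP2, an accessory protein of the adrenomedullin receptor, ECEL1, a membrane peptidase, and MYL11, a skeletal muscle myosin light chain, rose by 0.94, 1.32 and 1.36 and then fell by 0.90, 0.83 and 1.10 on the log2 scale. The rise of RAMP2 was 0.605 without the span trend.

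The genes that dipped at 48 h included the early response genes. EGR1 stood at 94.2, 95.8 and 78.9 FPKM at 72 h (3.06 ± 0.09 against 48 h, adjusted p = 4.13e-08), FOS at 379.9, 270.2 and 312 and FOSB at 53.5, 32.8 and 45.2, all above their control values. HES1, a repressor downstream of Notch, went from 22.9, 26.5 and 22.1 to 11.8, 12.2 and 12.2 and back to 23.2, 32.9 and 18.4 FPKM (-0.92 ± 0.16, then 0.95 ± 0.16). TXNIP, which inhibits thioredoxin and glucose uptake, went from 8.87, 8.45 and 9.72 to 2.25, 4.83 and 4.23 and then to 7.77, 17.9 and 9.72 FPKM (-1.11 ± 0.27, then 1.39 ± 0.27). GPNMB, a glycoprotein of lysosomes and melanosomes, went from 7, 6.41 and 5.85 to 2.26, 3.49 and 4.14 and then to 15.6, 16.8 and 14.3 FPKM (-0.81 ± 0.14, then 1.97 ± 0.14), so that its 72 h values were the highest of the series. In SEL1L (23.1, 41.7 and 60.9 FPKM at 48 h) and NFAT5 (2.98, 4.2 and 6.7) the 48 h libraries followed the order of the span gradient, whose part was not tested. Both stayed called lower at 48 h than at 0 h with the span trend removed. Without 48 h replicate 1 the fall of SEL1L went from -1.004 to -0.64.

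**Figure D4:**
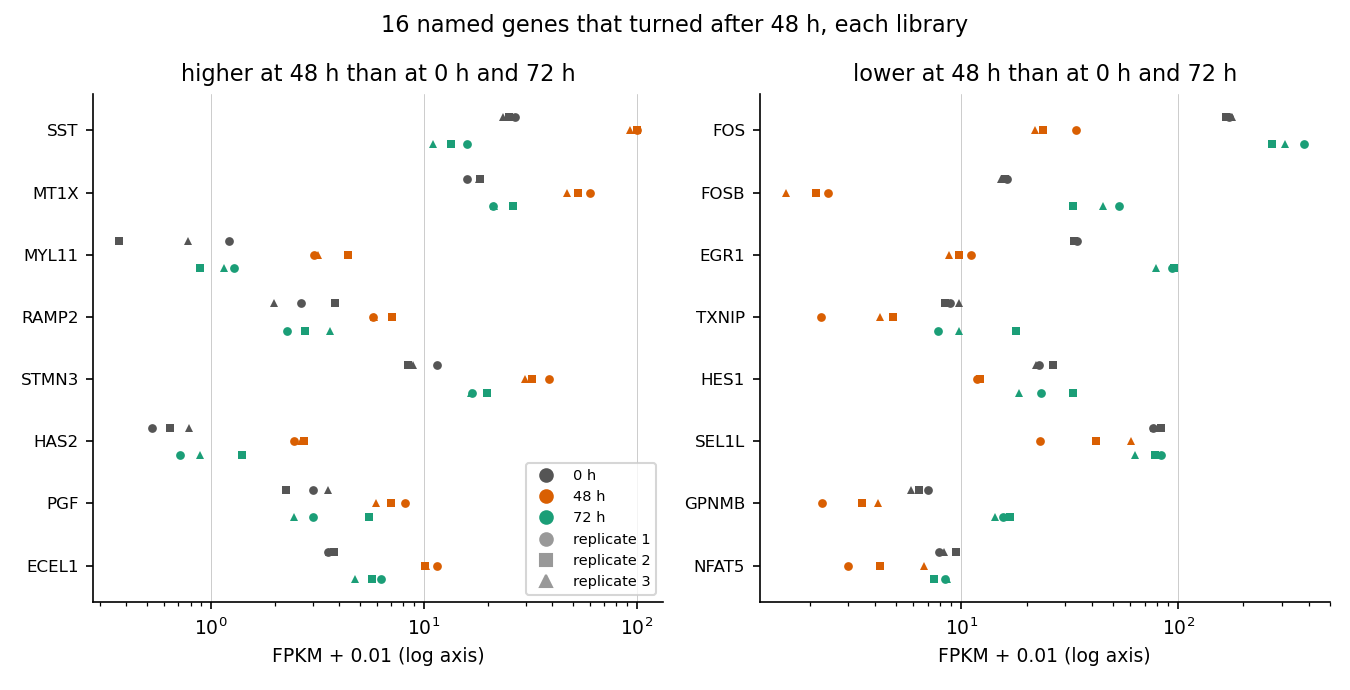
Each row is 1 gene and each mark 1 library (FPKM plus 0.01, log axis), with 0 h in grey, 48 h in orange and 72 h in green, and shapes for replicates. By the rule of choice, the orange marks lie to the right of both other times for the 8 genes on the left. For the 8 on the right they lie to the left of both, by the same rule. For SEL1L and NFAT5 the 48 h libraries are spread widely.

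Gene groups were read against the background of 27.6% called higher and 22.4% called lower. With equal FPKM sums these shares were 17.7% and 33.4% among all genes, and counts given for that scale are read against them. Group counts and the shares of all genes include genes tested only through the time at which they were high. The clearest departures toward lower values were nucleoporins with importins and exportins, and histone variants with their chaperones. Groups of retinoid, phospholipid, prostaglandin, nuclear receptor and cytokine genes had more members called higher than the background.

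**Figure D5:**
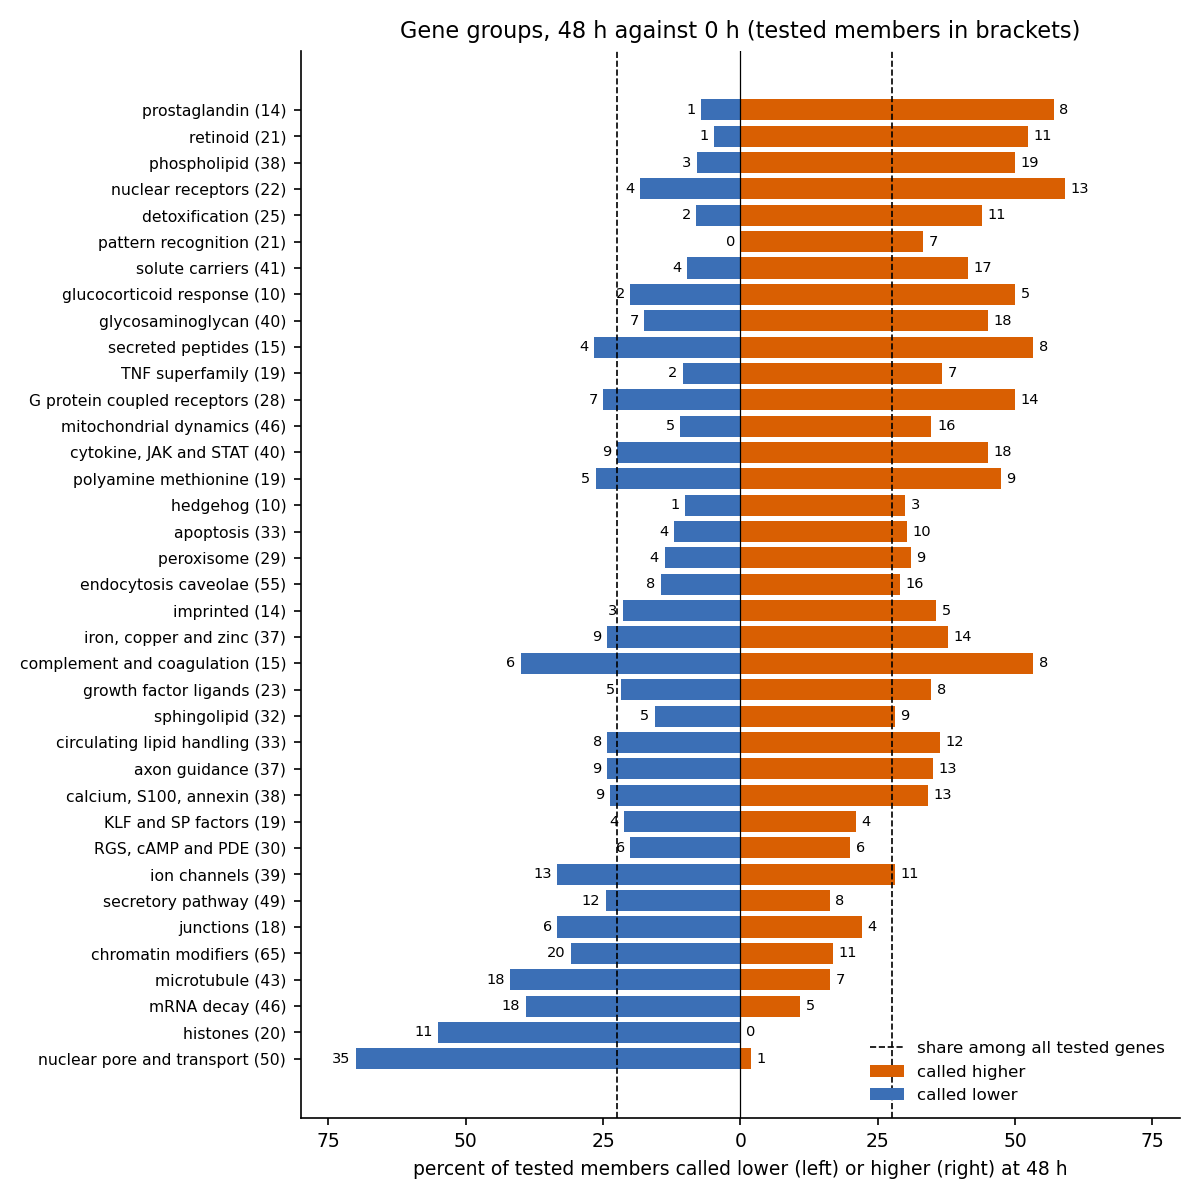
Bars give the percent of tested members of each gene group called higher (orange, right) or lower (blue, left) at 48 h, with the number of genes at each bar's end, and dashed lines the same shares among all 11063 genes (27.6% and 22.4%). Nuclear pore genes reach 70.0% called lower. The largest shares called higher are 59.1% in nuclear receptors and 57.1% in prostaglandin genes. Secreted peptides and complement and coagulation genes reach 53.3% each, and retinoid genes 52.4%.

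Among peptide hormones and their antagonists, 8 of 15 tested genes rose and 4 fell, with a median log2 change of 0.34 against 0.02 for all genes. Those that rose were SST, STC1, ADM, GREM1, APLN, SCG2, SCG5 and NAMPT. The falls were led by EDN1, which encodes the vasoconstrictor endothelin-1, from 3.7, 3.81 and 4.55 to 0.76, 0.63 and 0.7 FPKM (-1.56 ± 0.10). FSTL1, a secreted antagonist of BMP signalling, fell from 942, 945 and 919 to 544, 578 and 625 FPKM (-0.69 ± 0.06).

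Of 23 growth factor ligands 8 rose and 5 fell, near the background, and the median of 0.11 became -0.02 with equal FPKM sums. The 2 heparin-binding neurite growth factors of the midkine family both rose. MDK went from 85.8, 83.2 and 89.8 to 201, 202 and 189 FPKM (1.18 ± 0.10, adjusted p = 8.29e-06), and PTN from 67.98, 66.4 and 67.7 to 118, 121 and 103 (0.74 ± 0.10). PDGFB, a ligand for fibroblast PDGF receptors, fell from 1.19, 1.15 and 1.07 to 0.41, 0.48 and 0.65 FPKM (-0.50), while the receptor PDGFRA rose from 9.42, 9.17 and 9.44 to 24.2, 26.7 and 29.8 (1.43 ± 0.13). PDGFB was tested only through its control levels, so its fall is described with no test. BDNF, a neurotrophin, fell from 11.9, 12.4 and 11.4 to 9.65, 8.52 and 7.62 FPKM (-0.43 ± 0.11).

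Among cytokine ligands, receptors, JAK and STAT genes, 18 of 40 rose and 9 fell (median 0.26). IL33, an alarmin stored in the nucleus, and its receptor IL1RL1 moved in opposite directions. IL33 went from 0.54, 0.48 and 0.58 to 3.86, 3.99 and 3.76 FPKM (1.67 ± 0.08), while IL1RL1 went from 12.8, 12.4 and 14.1 to 5.13, 4.45 and 5.31 (-1.24 ± 0.13, adjusted p = 3.75e-05). IL33 was tested only through its later levels. LEPR, the leptin receptor, fell from 2.42, 2.44 and 2.04 to 0.97, 1.12 and 1.31 FPKM (-0.63 ± 0.10). STAT3, STAT5A, STAT5B and STAT6 were among the members that rose, as were the feedback inhibitors SOCS1, SOCS3 and CISH, while the kinase TYK2 and the inhibitors SOCS6 and PIAS1 were among the falls.

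Of 28 tested G protein coupled receptors 14 rose and 7 fell, and the number of rises went down to 7 with equal FPKM sums and to 9 without the span trend or without 48 h replicate 3. The largest changes were falls of 2 adhesion receptors. ADGRG1, which binds collagen and transglutaminase, fell from 45.9, 45.4 and 45.2 to 16.3, 14.7 and 15.7 FPKM (-1.49 ± 0.13, adjusted p = 1.03e-05), and ADGRG6 from 34.5, 34.3 and 35.9 to 15.6, 17.2 and 21.5 (-0.92 ± 0.14). RGS2, which shortens signalling by Gq proteins, rose from 2.3, 2.36 and 2.09 to 4.56, 5.42 and 5.06 FPKM (0.89 ± 0.11, or 0.587 without the span trend), in a group of regulators and phosphodiesterases with 6 rises and 6 falls among 30.

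Among semaphorins, ephrins and their receptors 13 of 37 were higher (35.1%) and 9 lower (24.3%), near the shares of all genes, with a median of -0.02 that turned to 0.04 without the span trend. SEMA3F and SEMA3C, both secreted semaphorins, rose by 0.87 ± 0.10 and 0.80 ± 0.13, while SEMA3D fell by 0.79 on the log2 scale. SEMA3C went from 18.8, 18.2 and 20.6 to 28.8, 34.2 and 40.1 FPKM. SEMA3D went from 35.2, 38.01 and 36.6 to 15.3, 21.9 and 26.6 FPKM, and its 48 h libraries were spread more widely than those at 0 h.

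Complement and coagulation genes were called in 14 of 15 cases, against 49.9% of all genes, with 8 higher and 6 lower. F3, tissue factor, which starts the extrinsic clotting pathway, fell from 108, 106 and 111 to 41.2, 32.4 and 37.2 FPKM (-1.53 ± 0.08, adjusted p = 5.66e-07). The other falls included TFPI2, PLAT, SERPINE2 and A2M. C3, CFI, SERPING1 and C1QTNF1 were among the rises, along with PLAU, its receptor gene PLAUR, F8 and SERPINF1. C3 is in the count although it was tested only through its later levels. The counts were the same with equal FPKM sums and without the span trend.

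Enzymes of prostaglandin and leukotriene metabolism were higher in 8 of 14 cases and lower in 1. PTGES, which makes prostaglandin E2, rose from 40.7, 39.1 and 42.6 to 81.5, 85.5 and 75.4 FPKM (0.97 ± 0.17, adjusted p = 0.00121). PTGIS, which makes prostacyclin, fell from 6.26, 6.34 and 6.02 to 2.68, 3.37 and 3.91 FPKM (-0.75 ± 0.10). The number of rises was 4 without 48 h replicate 1 and 5 with equal FPKM sums.

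Retinoid genes rose in 11 of 21 cases and fell in 1 (median 0.29). Vitamin A derivatives act through nuclear receptors, with binding proteins and dehydrogenases that control how much retinoic acid reaches them. CRABP1, which binds retinoic acid in the cytosol, rose from 17.5, 14.3 and 16.1 to 50.6, 50.4 and 40.97 FPKM (1.51 ± 0.12, adjusted p = 5.58e-06). RARG, a retinoic acid receptor, rose from 30.8, 31.3 and 31.6 to 78.6, 71.1 and 68.8 FPKM (1.19 ± 0.07, adjusted p = 6.95e-07). The 2 retinal dehydrogenases named by the rule moved apart, ALDH1A1 rising as described and ALDH1A2 falling from 1.54, 1.55 and 1.63 to 0.71, 0.68 and 0.7 FPKM (-0.60). ALDH1A1 was tested only through its later levels and ALDH1A2 only through its control levels. Both are in the counts, and their changes are described with no test. The other rises were RBP4, CRABP2, STRA6, RDH11, DHRS3, CYP26B1, RARA and RXRA. Without the span trend the counts were 10 and 2.

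Among nuclear receptors, which include 3 of these retinoid receptors, 13 of 22 rose and 4 fell. NR4A1, an orphan receptor of the early response, rose from 3.25, 3.07 and 3.04 to 6.98, 7.31 and 6.61 FPKM (0.95 ± 0.14), in contrast to FOS and EGR1. NR3C1, the glucocorticoid receptor, fell from 8.89, 9.36 and 10.2 to 6.59, 7.07 and 8.15 FPKM (-0.34 ± 0.08), or by 0.197 on the log2 scale without the span trend. Of 10 genes known to respond to glucocorticoids 5 rose and 2 fell. ERRFI1, a feedback inhibitor of the EGF receptor, rose from 12.5, 14.3 and 14.1 to 24.9, 39.2 and 39 FPKM (1.24 ± 0.17), and the members that fell were NR3C1 and TXNIP.

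Of 38 genes for synthesis and remodelling of phospholipids 19 rose and 3 fell (median 0.24). With equal FPKM sums the counts were 13 and 9. LPCAT3, which inserts polyunsaturated chains into phosphatidylcholine, rose from 14.7, 13.1 and 12.5 to 27.6, 28.9 and 23.1 FPKM (0.93 ± 0.09, adjusted p = 1.9e-05). PNPLA6, a lysophospholipase, rose from 3.57, 3.6 and 4.88 to 10.2, 8.68 and 8.88 FPKM (1.04 ± 0.11). PLD1, which makes phosphatidic acid, fell from 3.31, 3.11 and 2.84 to 1.49, 1.98 and 2.12 FPKM (-0.52 ± 0.10).

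Lipid droplet and lipoprotein genes were mixed, with 12 of 33 higher and 8 lower, or 7 and 9 with equal FPKM sums. PNPLA3, a lipase of lipid droplets, rose from 0.97, 0.92 and 0.67 to 3.82, 4.23 and 3.28 FPKM (1.36 ± 0.11), and was tested only through its later levels. PLIN2, which coats lipid droplets, fell from 34.1, 33.3 and 36.1 to 24.7, 21.6 and 23.4 FPKM (-0.55 ± 0.07), and VLDLR, a lipoprotein receptor, from 107, 106 and 110.5 to 69.9, 77.4 and 84.5 (-0.48 ± 0.07). Among solute carriers 17 of 41 rose and 4 fell, or 11 and 9 with equal FPKM sums, and SLC25A1, the carrier that exports citrate from mitochondria, rose from 59.7, 58.8 and 64.3 to 129, 119 and 107 FPKM (0.94 ± 0.08).

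Glycosaminoglycan genes rose in 18 of 40 cases and fell in 7, or in 10 and 9 with equal FPKM sums. The falls numbered 3 without the span trend and 4 without 48 h replicate 1. Genes for both making and degrading hyaluronan rose. HAS2 is described above, and CEMIP, which depolymerises hyaluronan, rose from 10.7, 10.5 and 9.8 to 19.5, 19.7 and 20.7 FPKM (0.89 ± 0.07, adjusted p = 6.41e-06). CEMIP rose further, to 44.7, 38.4 and 44.03 FPKM at 72 h (1.04 ± 0.07), where HAS2 had fallen back.

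For iron, copper and zinc, 14 of 37 genes rose and 9 fell, and the median of 0.08 became -0.05 with equal FPKM sums and -0.04 without the span trend. TFRC, the transferrin receptor, rose from 39.8, 40.1 and 40.97 to 57.7, 70.9 and 79.1 FPKM (0.75 ± 0.11) and on to 117, 140.4 and 122 at 72 h. ATOX1, a copper chaperone, rose from 5.62, 7.47 and 6.22 to 12.4, 12.5 and 12.7 FPKM (0.87 ± 0.09). Among polyamine and methionine genes (9 rises and 5 falls of 19, or 8 and 3 without 48 h replicate 1), ODC1, which makes putrescine, fell from 123, 122 and 128 to 97.8, 99.98 and 97.8 FPKM (-0.33 ± 0.05, or -0.523 without the span trend), and AZIN1, which protects it from degradation, from 30.02, 30.8 and 33.8 to 18.4, 19.01 and 22.5 (-0.64 ± 0.11).

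Most tested genes for transport through the nuclear envelope were called lower. Of 50 tested nucleoporins, importins, exportins and Ran regulators, 35 fell (70.0%, against 22.4% of all genes) and 1 rose (2.0%), with a median of -0.39. The falls ranged from -1.29 to -0.19. KPNA2 (chromosome 12, 14283092 to 14296749), an importin alpha that carries proteins with a nuclear localisation signal, fell from 253, 240.0 and 259 to 112, 110.3 and 113 FPKM (-1.16 ± 0.05, adjusted p = 2.76e-07). Its 48 h libraries differed little, and it went on to 61.4, 66.6 and 65.2 FPKM at 72 h (-0.79 ± 0.05). NDC1, which anchors the pore in the membrane, fell from 16.8, 15.3 and 16.3 to 4.96, 6.04 and 7.25 FPKM (-1.29 ± 0.11, adjusted p = 1.02e-05). XPO4, an exportin, was the exception at 0.36 ± 0.08, and its call was lost with quantile normalization. The group's median span of 51.5 kb was above the 30.3 kb of all tested genes. Without the span trend 30 of 49 fell and 1 rose, with a median of -0.32, and without 48 h replicate 1 the falls numbered 32.

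Of 20 histone variant and chaperone genes 11 fell and 0 rose by limma (median -0.26), with 0 members higher at an unadjusted p under 0.05. A span was known for 11 of them, and without the span trend 8 of these fell. HJURP, which loads the centromeric histone, fell from 11.9, 10.6 and 11.8 to 4.96, 5.34 and 4.69 FPKM (-1.05 ± 0.11, adjusted p = 4.32e-05), and that histone, CENPA, from 14.9, 13.7 and 15.2 to 7.52, 8.03 and 7.31 (-0.85 ± 0.08, adjusted p = 1.19e-05). Both went on falling to 72 h (-1.01 ± 0.11 and -0.97 ± 0.08). Several members of this group, such as CENPA, ASF1B and CHAF1A, are known to be made mainly in dividing cells.

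Chromatin modifiers were lower in 20 of 65 cases and higher in 11, with a median of -0.04 that turned to 0.04 without the span trend. EZH2, the Polycomb methyltransferase, fell from 23.9, 22.2 and 22.6 to 12.2, 11.9 and 12.3 FPKM (-0.87 ± 0.08, adjusted p = 2.36e-05), along with SUZ12, DNMT1, UHRF1 and SUV39H1. HDAC5, a class IIa histone deacetylase, rose from 15.3, 16.1 and 16.04 to 27.01, 28.8 and 25.3 FPKM (0.74 ± 0.08), and SIRT2, a deacetylase of tubulin and histones, from 29.02, 21.8 and 25.8 to 47.9, 40.4 and 38.2 (0.70 ± 0.11). CDKN1C, an imprinted inhibitor of cyclin-dependent kinases, rose from 1.46, 1.61 and 1.87 to 6.55, 6.06 and 5.54 FPKM (1.41 ± 0.11, adjusted p = 4.41e-06). PEG10, an imprinted gene derived from a retrotransposon, fell from 406, 417 and 445 to 248, 259 and 327 FPKM (-0.61 ± 0.12).

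Genes of mRNA decay fell in 18 of 46 cases and rose in 5 (median -0.13). SMG1, a kinase of nonsense-mediated decay with a span of 104 kb, fell from 4.16, 5.37 and 4.82 to 1.19, 2.11 and 3.31 FPKM (-0.90 ± 0.19), with the 48 h libraries again in the order of the span gradient. SMG1 stayed called lower with the span trend removed. ZC3H12A, a ribonuclease that degrades inflammatory messages, rose from 3.18, 3.91 and 3.06 to 7.62, 6.13 and 5.95 FPKM (0.79 ± 0.15). Without the span trend 15 fell and 2 rose.

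Microtubule genes fell in 18 of 43 cases and rose in 7, and without the span trend in 18 and 7 of 41. With equal FPKM sums 25 fell and 5 rose. TUBB3, a beta tubulin of neurons, rose from 70.5, 62.01 and 67.3 to 155, 161 and 134 FPKM (1.16 ± 0.09, adjusted p = 4.09e-06), in common with STMN3, while TUBB, TUBA1B, TUBB6 and STMN1 were among the falls. Tubulin genes have close copies that may share reads.

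Of 39 ion channels 11 were higher (28.2%) and 13 lower (33.3%), against 27.6% and 22.4% of all genes. The rises include KCNK2, which was tested only through its later levels. The falls numbered 8 without the span trend, where the median turned from -0.08 to 0.06, and 7 without 48 h replicate 1. CACNA1C, the pore of the L-type calcium channel, rose from 2.87, 2.64 and 3.63 to 7.32, 7.73 and 7.37 FPKM (1.07 ± 0.10, adjusted p = 1.64e-05) and has a span of 431 kb, and the channels PIEZO1, PIEZO2, TRPC1 and TRPC6 were among the falls. CLDN11, a tight junction claudin, rose from 0.7, 0.7 and 0.9 to 3.51, 2.35 and 3 FPKM (1.15 ± 0.11), in a group of junction genes with 4 rises and 6 falls of 18. CLDN11 was tested only through its later levels.

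Of 33 apoptosis genes 10 rose (30.3%) and 4 fell (12.1%), the rises including CASP1, which was tested only through its later levels. Without the span trend 3 of 31 rose and 6 fell, without 48 h replicate 1 there were 9 rises and 1 fall, and with equal FPKM sums 6 and 10, near the shares of all genes on that scale. BAD, a promoter of cell death, rose from 14.1, 10.8 and 9.95 to 26.8, 23.1 and 20.2 FPKM (0.95 ± 0.12), and FAS, a death receptor, fell from 11.7, 10.01 and 13.6 to 7.37, 7.87 and 9.07 (-0.48 ± 0.11). Of 46 genes of mitochondrial dynamics 16 rose and 5 fell, and the median of 0.13 became -0.02 without the span trend. With equal FPKM sums it was -0.01, against -0.10 for all genes. The fusion genes MFN1 and MFN2 fell by 0.47 and 0.45 on the log2 scale, while MTFP1, which promotes fission, rose from 4.32, 6 and 5.26 to 10.4, 13 and 13.8 FPKM (1.11 ± 0.21).

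Of the targets of Hedgehog signalling, GLI1 rose from 2.09, 2.35 and 2.03 to 4.9, 4.95 and 4.06 FPKM (0.83 ± 0.09) and HHIP, which binds the ligand, fell from 7.28, 7.86 and 6.87 to 3.85, 3.76 and 4.4 (-0.74 ± 0.09), in a group with 3 rises and 1 fall of 10, or 2 and 3 with equal FPKM sums. Calcium-binding S100A4 rose from 492, 441 and 482 to 1066, 813 and 807 FPKM (0.91 ± 0.11, or 0.607 without the span trend). ALDH2, which oxidises acetaldehyde, rose from 16.5, 14.8 and 13.3 to 23.8, 23.2 and 22.4 and on to 45.4, 48.8 and 45.7 FPKM at 72 h. Several other groups had counts that moved with the scale. Of 55 endocytosis genes 16 rose and 8 fell, or 10 and 18 with equal FPKM sums. Of 38 genes of calcium stores and S100 proteins 13 rose and 9 fell, or 9 and 13 with equal FPKM sums. Of 49 genes of the secretory pathway 8 rose and 12 fell, or 5 and 22 with quantile normalization. Of 25 detoxification genes 11 rose and 2 fell, or 4 and 7 with equal FPKM sums and 10 and 4 without 48 h replicate 3. Of 29 peroxisome genes 9 rose and 4 fell, or 5 and 8 with equal FPKM sums. Of 32 sphingolipid genes 9 rose and 5 fell, or 7 and 9 with equal FPKM sums and 8 and 3 without 48 h replicate 1. Of 21 genes of pattern recognition 7 rose and 0 fell by limma, 3 members being lower at an unadjusted p under 0.05, while 8 rose and 4 fell without 48 h replicate 3. Of 19 KLF and SP factors 4 rose and 4 fell, or 2 and 8 with equal FPKM sums and 4 and 7 without 48 h replicate 3. Of 14 imprinted genes 5 rose and 3 fell, or 5 and 5 with equal FPKM sums, and of 19 genes of the TNF superfamily 7 rose and 2 fell.

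Fibroblast markers were present at high levels in both groups. All 14 matched fibroblast markers were tested, and their summed level was 23500 to 24500 FPKM at 0 h and 21200 to 22500 at 48 h, with 6 higher and 4 lower. LUM, a small proteoglycan of the matrix, rose from 12.1, 13.01 and 12.9 to 33.5, 33.4 and 34.5 FPKM (1.34 ± 0.07), while COL5A1, a fibrillar collagen, fell from 888, 918 and 849.6 to 666, 713 and 681 (-0.37 ± 0.06, or -0.217 without the span trend and -0.571 with quantile normalization). Markers of pericytes and smooth muscle fell in 7 of 8 tested cases, with a summed level of 7290 to 7440 FPKM at 0 h and 5490 to 6380 at 48 h. Of 12 matched markers, 4 were under 1 FPKM in all 6 libraries: RGS5, HIGD1B, KCNJ8 and ABCC9. KCNJ8 did not fall, at 0.21 to 0.29 FPKM at 0 h and 0.41 to 0.45 at 48 h. NOTCH3 fell from 53.3, 54.4 and 50.5 to 18.5, 20.5 and 21.6 FPKM (-1.34 ± 0.07), and MCAM from 25.1, 21.7 and 28.1 to 14.2, 11.9 and 12.6 (-0.90 ± 0.12). The part of such cells in the falls of contractile genes was not tested.

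Many markers of cell types other than fibroblasts, pericytes and smooth muscle were under 1 FPKM in all 6 libraries, but not all were low. DES, TUBB3, STMN2, LYZ, CD79A and DMP1 stood above the fibroblast markers PDGFRA and FAP in every control library. DES, an intermediate filament of muscle, is on both the pericyte and the skeletal muscle list. Summed epithelial markers went from 8.37 to 9.61 FPKM at 0 h to 14.5 to 15.1 at 48 h, with 6 of 9 matched markers under 1 FPKM in all 6 libraries and GRHL2 at 0. Leukocyte markers summed to 38.5 to 40.9 FPKM and then 58.2 to 60.6. LYZ held 22.2 to 23.7 FPKM of this and then 21.6 to 22.8, and the rise was mostly through CD79A (9.89, 12.9 and 9.77, then 31.5, 30.9 and 29.3). CD14 rose (0.82) and LCP1 fell (-0.98), while PTPRC, CD163 and CD3E were at 0 and 10 of 14 were under 1. Endothelial markers summed to 14.7 to 15.0 FPKM and then 12.1 to 14.7, with CDH5 at 0. Neural and glial markers went from 88.9 to 99.5 FPKM to 162 to 188, with 6 of 10 under 1 FPKM and TUBB3 making up most of the sum. Skeletal muscle markers went from 1430 to 1470 FPKM to 866 to 946, nearly all of it DES (1420 to 1450, then 858 to 937), and ACTA1 fell from 3.9, 3.83 and 4.16 to 1.15, 0.98 and 0.95 (-1.29 ± 0.14). Adipocyte markers summed to at most 6.05 FPKM in both groups, with ADIPOQ, LEP and CIDEC at 0, and all 5 matched erythroid markers were at 0. Markers of cartilage and bone summed to 28.9 to 31.4 FPKM and then 33.2 to 37.8, with SOX9 higher (0.95 ± 0.09) and ACAN lower (-0.998 ± 0.12). ACAN was tested only through its control levels.

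The 6 genes with the widest spread at 48 h were LPP, NIPSNAP1, PTPN18, RNPC3, ATP8 and WDR6. NIPSNAP1 was listed at 0 in 1 of the 3 libraries at 48 h and at 11.04 and 10.93 FPKM in the others, against 0, 0 and 3.81 at 0 h (adjusted p = 0.24, or 0.0397 without 48 h replicate 2). PTPN18, RNPC3 and WDR6 were not called either (adjusted p = 0.414, 0.918 and 0.845). ATP8, a short mitochondrial gene, was called (1.15 ± 0.35, adjusted p = 0.0195) although its 48 h values of 51.9, 79.95 and 24.1 FPKM overlapped the control values of 25.1, 24.3 and 13.9, and its call was lost without the span trend (0.58, adjusted p = 0.167). It was also lost when 0 h replicate 3 or 48 h replicate 1 or 2 was left out, with adjusted p from 0.0608 to 0.0792.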

How the data were processed

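RNA of 9 libraries was measured, 3 each at 0 h, 48 h and 72 h. Total RNA was depleted of ribosomal RNA (Ribo-zero) before library preparation with a NEBNext Ultra RNA kit, per the labels' protocols. The deposited values are FPKM made by the authors, per the file headers, and carry no counts, so read depth is unknown. Too few genes had comparable lowest values (2 to 68 per library) to recover relative depth, and 15873 to 16274 genes per library were above 0. Tools listed without roles in the submitters' processing notes are RSEM 1.2.28, HISAT2 2.1.0, DESeq2 and featureCounts 2.0.2, with the build Sscrofa11.1. The strand setting is not stated there, and genes that overlap, also on opposite strands, may hold each other's reads.

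Genes that reached 1 FPKM in 3 or more libraries entered the fit as log2(FPKM + 1) by limma 3.58.1 (R 4.3.3), over all 9 libraries with group as the only term and a trend in the prior variance. Fold changes on this scale understate low genes. Tests were two-sided, with Benjamini-Hochberg adjustment over 11063 genes and a threshold of 0.05. The median standard error was 0.0883. If the replicates are not separate cultures, p-values cover technical spread only. The fit was tested on simulated data. Symbols matched 14864 of 30477 IDs, and gene spans came from RefSeq's Sscrofa11.1 table by symbol (9306 genes, 84.12% of those tested).

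The comparison, the 39 gene groups, the 10 marker lists and the naming rule were chosen with earlier results of these data known. The rule took the 12 highest and 12 lowest called genes that did not overlap, 8 genes per direction that turned after 48 h, genes below 0.5 FPKM in every library of one time and at least 1 in every library of the other, the 8 largest gains and 8 largest losses in FPKM, the 2 largest called members of each group plus up to 2 against its majority, and the 6 widest spreads at 48 h. It gave 189 genes. Those described in the text were narrowed after their values were seen, and group members listed without values were likewise chosen then. One group, of long non-coding RNAs, matched no symbol. Some genes and 1 gene group are not reported here. Alternatives were other pseudocounts (0.1), filters, scalings, 6 libraries only, library weights, a replicate block and leaving out each library. Removing a span trend, fitting genes with a span only and rescaling to protein-coding genes were added after seeing the data.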

Additional observations from a re-analysis of the deposited data

Results flagged for a closer look

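For 16 genes the change from 48 h to 72 h went against the change from 0 h to 48 h, with both called by limma. The 2 changes share the 48 h libraries, and the difference between them was not itself tested. Genes that rose and then fell had log2 changes from 48 h to 72 h of -2.79 for SST, -1.19 for MT1X, -1.10 for MYL11, -0.90 for RAMP2, -0.88 for STMN3, -0.87 for HAS2, -0.83 for PGF and -0.83 for ECEL1. Genes that fell and then rose had changes of 3.56 for FOS, 3.87 for FOSB, 3.06 for EGR1, 1.39 for TXNIP, 0.95 for HES1, 0.92 for SEL1L, 1.97 for GPNMB and 0.76 for NFAT5. In FOS, FOSB, EGR1 and GPNMB the 72 h values exceeded the control values in all 3 libraries, and in SST they lay below them in all 3.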

How the results depend on the processing

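Of 189 named genes, 175 kept their call and direction under each alternative in which they were tested, and 14 did not. The fits with a known span held 180 of the named genes, and the filter on a mean of 5 FPKM 129. COX3 went to -0.052 and LGALS1 to -0.047 with the gene span trend removed. Genes higher at 48 h numbered 1959 with equal FPKM sums, and genes lower numbered 3823 with library weights, whose estimation did not converge. Quantile normalization gave 2665 higher and 2747 lower, so that 49.2% of calls were higher. A pseudocount of 0.1 gave 308 rises and 266 falls of at least 1 on the log2 scale, and removing the span trend gave 100 rises of that size, against 140 among the same genes as deposited. Genes higher at 48 h than at both other times numbered 302 with equal FPKM sums, 323 with the span trend removed (645 among the same genes as deposited), 451 with quantile normalization, 341 rescaled to protein-coding genes and 1823 with library weights. Genes lower at 48 h than at both numbered 591, 474, 553 and 1287 with equal sums, quantile normalization, protein-coding genes and library weights. With the span trend removed they numbered 281, against 318 among the same genes as deposited. Apart from what a different set of libraries or scale does by construction, the cause was not tested. Leaving out 1 library at a time gave 2503 to 3087 genes higher, 1939 to 2683 lower, 166 to 192 higher and 131 to 187 lower by at least 1, 360 to 1093 higher than at both other times and 148 to 768 lower than at both. The latter 2 counts also moved by more than 1.5 times without 72 h replicate 1 (452 and 156) or 3 (423 and 170), and the last without 0 h replicate 2 (206) or 3 (203).

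Deviations from the group means had correlations from -0.071 to 0.193 between same-numbered libraries of different times. Between differently numbered ones they ran from -0.182 to 0.174. These ranges overlap, so whether the numbers pair the samples cannot be told from them. With the replicate block 3081 genes were higher and 2551 lower, and 5378 of 5524 calls were kept. Read depth is unknown, and changes of genes near 1 FPKM rest on the pseudocount.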
